A study of Mus musculus with 11 samples.

Results

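Inner hair cells (IHCs) of the mouse cochlea at postnatal day 7 (P7) were picked from single-cell RNA profiles by 3 genes. A P7 cell was taken as an IHC when it held Fgf8 above 0, Otof of at least 2.0 and Myo6 of at least 1.0, on the scale of the deposited values (the natural log of 1 plus the gene's unique molecular identifiers, UMIs, per 10000 UMIs of the cell). This gate took 77 of 3377 P7 cells, 38 of 1775 in replicate 4 and 39 of 1602 in replicate 5. The whole series holds 30634 cells in 11 libraries. Since the 3 genes chose the cells, their levels are a description, and genes that all hair cells (HCs) share had to stand higher in the gate than in cells without Myo6 and Otof.

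The study captured cells of the Cochlear Sensory Epithelium from Wildtype CD1 mice at embryonic days 14 and 16 (E14 and E16) and postnatal days 1 and 7 (P1 and P7) on a 10x Chromium instrument. No animal carried a mutation or was treated. Per the methods, the cochleae of several pups of either sex were pooled for a capture, so that a replicate here is a capture of pooled animals and not 1 animal. The P7 group has 2 libraries, numbered 4 and 5, and the P1 group, used for the comparison of ages, has 4, numbered 1 to 4.

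IHCs are the primary sensory cells of hearing. They turn the deflection of their stereocilia into graded release of glutamate at ribbon synapses, which drive the afferent fibers of the spiral ganglion, whereas outer hair cells (OHCs) mainly amplify the vibration of the organ of Corti by changing length. Glutamate is loaded into IHC vesicles by Vglut3 (Slc17a8), calcium enters through Cav1.3 channels (Cacna1d), and otoferlin (Otof) couples calcium to vesicle fusion. Around the end of the first postnatal week IHCs still fire spontaneous action potentials and still receive efferent cholinergic input, both of which are known to be lost as hearing begins.

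The 77 IHCs were well covered relative to the other P7 cells. Their median depth was 7527 UMIs per cell in replicate 4 and 7704 in replicate 5, against 4510 and 4849.5 for all cells of these libraries. The deposited P7 values stand for 17496135 UMIs over 21500 genes. The 38 IHCs of replicate 4 made up 2.14% of that library (exact Clopper-Pearson 95% interval 1.52% to 2.93%) and the 39 of replicate 5 made up 2.43% (1.74% to 3.31%), intervals that cover counting error only. Pearson's r between the IHC profiles of the libraries was 0.894 across 9064 genes, which are not independent replicates. The median gene differed by 0.42 on the log2 scale between the libraries, and 1167 of the 9064 differed by more than 1. Between the P7 libraries 9 cell barcodes were shared, none of them in a member. Scrublet, set to expect 0.06 of cells as doublets, called 9 cells (0.507%) and 14 cells (0.874%) in replicates 4 and 5. Of these 1 and 2 lay in the gate and were kept. These shares were far below the expected one, so that a cell without a call may still be a doublet.

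**Figure D1:**
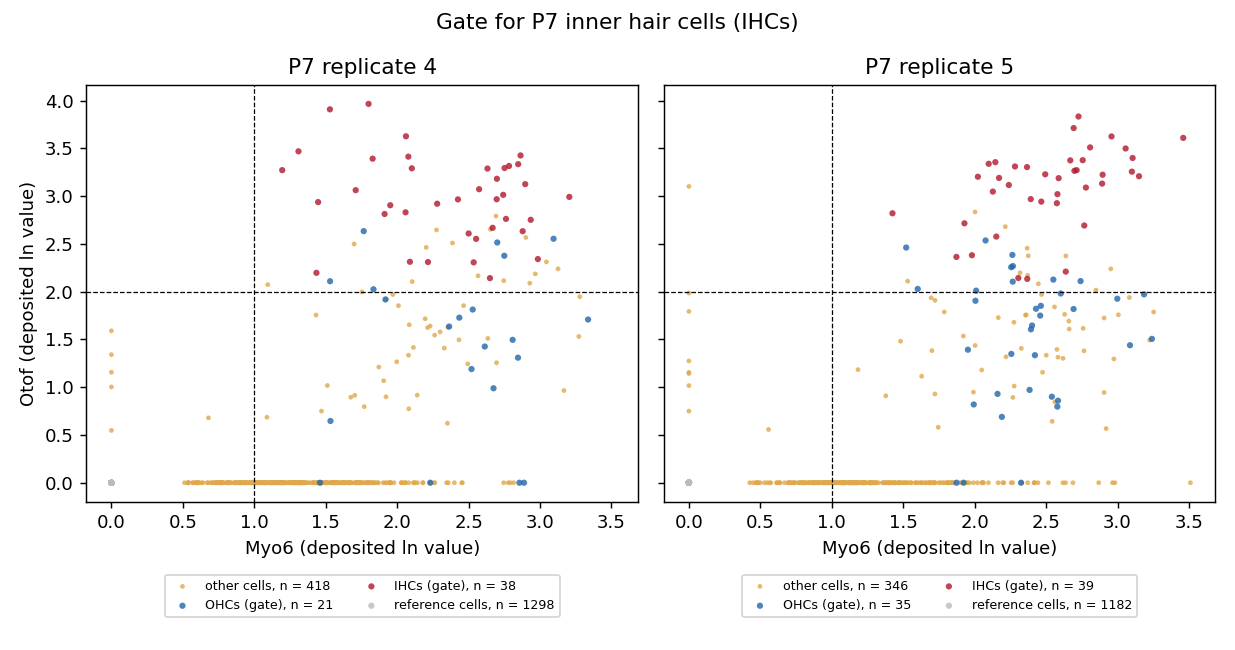
Otof (vertical axis) against Myo6 (horizontal axis), both as deposited ln values, for each cell of P7 replicate 4 (left) and 5 (right). Each point is a cell, red for the 77 IHCs, blue for the 56 OHCs of the comparison gate, grey for the 2480 reference cells, which lie together at 0, and yellow for the rest. Dashed lines mark Otof of 2.0 and Myo6 of 1.0. Cells in the upper right that are not red had no Fgf8.

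Otof ran from 2.13 to 3.97 in the members, with a median of 3.12, and 11 of the 77 lay between 2.0 and 2.5. The lowest Myo6 value was 1.2. The median member held 5 UMIs of Fgf8, and 5 members held 1. Just outside the gate, 4 cells failed on Otof only, the highest of them at 1.75, and 1 failed on Myo6 only, at 0. The Fgf8 condition turned away more cells than the other conditions. It alone left out 42 cells, 16 of which entered the OHC gate, and 0 of the 42 held a UMI of Slc17a8.

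The reference was every P7 cell without a UMI of Myo6 or Otof, 1298 cells in replicate 4 and 1182 in replicate 5, with median depths of 4212.5 and 4582 UMIs. OHCs, the nearest cell type, were taken as cells with Myo6 of at least 1.0, no Fgf8, Slc26a5 (prestin, the OHC motor protein) above 0 and Ocm of at least 2.0. That gate held 21 cells in replicate 4 and 35 in replicate 5, with median depths of 6886 and 7447 UMIs. OHCs without a UMI of Slc26a5 or with less Ocm were left out, so this class is a part of the OHCs. Each class was averaged over its cells in each library as CPM (UMIs per 1000000 UMIs of the cell), and classes were compared with limma on log2(CPM + 10), with library as a block. With 2 libraries there is 1 residual degree of freedom per gene. The variance was shared across genes, and against the reference it was taken wholly from all genes, so that those p-values are small and say little of a single gene's own spread. An exact permutation test of 2 libraries against 2 cannot reach 0.05. P-values measure only the spread between these captures. A log2 fold change on this scale understates the change of weakly expressed genes.

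Rprm, Dlk2 and Slc17a8 took no part in the gate. They were chosen with earlier results of these data known, so their levels describe the class and are no independent evidence of its identity. Rprm (reprimo, a p53-responsive growth arrest gene, chromosome 2 from 54084093 to 54085552, GRCm38) averaged 5070.1 and 4141 CPM in IHCs of replicates 4 and 5, 4.33 and 2.84 CPM in OHCs and 175 and 155 CPM in the reference. A UMI of it was found in 75 of 77 IHCs and 2 of 56 OHCs. Dlk2, a Delta-like membrane protein, averaged 508 and 576 CPM in IHCs and 1.47 and 0 CPM in the reference. Slc17a8 stood at 96.6 and 103 CPM in IHCs and 0.50 and 1.2 CPM in the reference. It was seen in 37 of 77 IHCs (48.1%) and in 0.363% of the reference cells. After each cell was thinned to 1500 UMIs, these shares were 13% and 0.161%. No OHC held a UMI of it, which allows up to 5.36% of cells with one. Conversely 0 of 77 IHCs held a UMI of Slc26a5, which allows up to 3.90% of cells with one. These limits are for detection and do not bound the share of cells that express the genes.

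Against the reference the IHCs stood apart widely, with 52.9% of the genes tested past the threshold. Of 9064 genes, 2526 were higher (27.9%) and 2271 lower (25.1%) at limma's adjusted p of 0.05, with a median log2 fold change of 0.09 over all genes. Of the 15 genes listed as IHC markers, 13 passed the filter on low values (a mean of 10 CPM over the profiles compared) and 13 were higher, with a median of 3.92. The other 2, Dnajc5b and Nat8l, were too low to test. The size of the split from the reference is fixed in part by the gate, so these counts describe the class and do not test it. A gene near 0 in the reference passed the filter only if IHCs held more of it, and a gene near 0 in IHCs only if the reference did. The numbers of higher and of lower genes among those tested in a list are thus fixed in part by the filter. List counts against the reference that follow stand beside 27.9% and 25.1% of all genes, which does not remove this. With no filter on low values 0 of 21497 genes passed limma's adjusted p of 0.05, so the calls depend on the filter. At an unadjusted p under 0.05, 2410 were higher and 4172 lower. Thinning each cell to 1500 UMIs left 590 higher and 585 lower.

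The largest rise was in Pvalb (parvalbumin, a calcium buffer, chromosome 15 from 78191114 to 78206400), which averaged 5324 and 6554 CPM in IHCs and 5.45 and 3.94 CPM in the reference (log2 fold change 8.66, standard error, SE, 0.21). Pcp4, a small regulator of calmodulin, averaged 6044 and 8975 CPM against 7.53 and 12.8 CPM (8.53, standard error 0.19). Calb2 (calretinin, another buffer) averaged 4505 and 3551 CPM against 5.87 and 3.54 CPM (8.10, standard error 0.21). The rest of the 10 largest rises were Ighm, Cabp2, Cib2, Pou4f3, Lhfpl5, Acbd7 and Cd164l2, with log2 fold changes from 5.90 to 7.41. In every one of them both IHC libraries lay above both reference libraries. Calcium handling as a list had 15 of 16 members tested, 14 higher and 1 lower, with a median of 3.20. The lower one was S100b, at 2.66 and 2.29 CPM in IHCs and 58.7 and 93.4 CPM in the reference. The sarco-endoplasmic reticulum pump Atp2a3 was seen in 72 of 77 IHCs and averaged 579 and 664 CPM, against 0.782 and 0.449 CPM.

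Of 18 genes listed for the ribbon synapse, 14 were tested against the reference and 12 were higher, where 27.9% of all genes were, with a median log2 fold change of 2.12. Cacna1d, the pore subunit of Cav1.3, averaged 211 and 295 CPM in IHCs and 4.90 and 5.98 CPM in the reference, and 63 of 77 IHCs held a UMI. Cabp2, a calmodulin-like regulator of that channel, was in all 77 cells and averaged 1970.4 and 1725 CPM against 2.86 and 5.28 CPM. Of the scaffold genes, Rims2 averaged 44.3 and 15.8 CPM and Rimbp2 47.5 and 38.2 CPM in IHCs, both higher than in the reference. Bsn (10.1 and 3.15 CPM) and Pclo (17.6 and 8.37 CPM), the large proteins bassoon and piccolo, and Cabp1 (18.8 and 18.0 CPM) did not pass the filter. Ctbp2, whose locus also encodes the ribbon protein Ribeye, averaged 69.1 and 79.8 CPM in IHCs and 36.7 and 36.2 CPM in the reference (log2 fold change 0.86, SE 0.30, limma's adjusted p = 0.00935). Rims1 held no UMI in any of the 77 cells, which allows up to 3.90% of cells with one. Libraries of this kind count 3' ends, so that levels of different genes were not compared with each other.

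General vesicle genes had a lower median than ribbon genes. Of 28 listed, 18 were tested, 11 were higher and 2 lower, where 27.9% and 25.1% of all genes were, with a median log2 fold change of 1.01. Dnm1 (dynamin 1, which cuts endocytic vesicles from the membrane) was the largest at 152 and 158 CPM in IHCs against 1.42 and 4.19 CPM (3.70, standard error 0.32). Syt2, a calcium sensor of fast release, averaged 56.8 and 26.0 CPM against 1.22 and 2.69 CPM. The lower pair were Syt1, at 11.9 and 50.1 CPM in IHCs and 51.9 and 58.4 CPM in the reference, and Vamp4, at 17.5 and 6.07 CPM and 36.7 and 47.7 CPM. The IHC libraries of Syt1 spanned a wider range than the class difference. The log2 fold change of Syt1 was -1.50 within replicate 4 and -0.19 within replicate 5, and its call was lost in 8 of the 15 other fits, at an adjusted p of 0.054 to 0.496.

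The mechanotransduction list stood higher than in the reference in most genes that passed the filter. It holds 16 symbols, of which Dfnb59 and Pjvk name the same gene, and 11 were tested. Of these 10 were higher, with a median log2 fold change of 3.90. Cib2, a calcium-binding partner of the Tmc channel proteins, averaged 5739.5 and 5704 CPM in IHCs and 34.9 and 33.3 CPM in the reference. Lhfpl5, a tip-link linked channel partner, averaged 1181 and 877 CPM against 1.35 and 1.71 CPM. The channel gene Tmc1 averaged 53.8 and 19.1 CPM in IHCs and 0.208 and 0.205 CPM in the reference (log2 fold change 2.08, standard error 0.41), with a UMI in 16 of 77 cells. Tmc2, its early partner, had 0 UMIs in the 77 cells. Ush1c was the member that did not pass, at 91.6 and 117 CPM against 157 and 111 CPM (limma's adjusted p = 0.278).

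Among 30 genes of stereocilia and actin, 27 were tested, 19 were higher and 5 lower, with a median of 1.89. Espn (espin, an actin bundler) averaged 996 and 894 CPM in IHCs and 7.00 and 7.12 CPM in the reference. Xirp2, an actin-binding protein of stereocilia, averaged 319 and 384 CPM against 0.304 and 0 CPM. The 5 lower genes included both cytoplasmic actins. Actg1 averaged 3585 and 2902 CPM in IHCs against 10315 and 7426 CPM, and Actb 487 and 543 CPM against 991 and 1062 CPM, with Capzb, Rdx and Gnai3 also lower. The log2 fold change of Gnai3 was -0.70 within replicate 4 and -2.04 within replicate 5.

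Of 21 potassium and other channel genes, 10 were tested, 9 were higher and 1, Kcnj16, was lower, with a median of 2.36. Kcnj13 averaged 547 and 534 CPM in IHCs and 7.80 and 5.39 CPM in the reference, and Kcna10 247 and 234 CPM against 0.933 and 0 CPM. Kcnma1, the BK channel of mature IHC currents, had a UMI in 14 of 77 cells. It averaged 36.7 and 20.6 CPM against 1.26 and 3.38 CPM (log2 fold change 1.62, standard error 0.41). Receptor genes of the efferent synapse were higher than in the reference. Chrna9 and Chrna10, which form the nicotinic receptor of HCs, averaged 249 and 245 CPM and 147 and 215 CPM, and Kcnn2, the SK2 channel that this receptor opens, 145 and 97.0 CPM. Of 13 receptor genes listed, 6 were tested, 4 were higher and 2, P2rx2 and P2ry1, were lower.

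Of 21 transcription factors listed, 14 were tested, 10 were higher and 3 lower, with a median of 1.57. Pou4f3, a survival factor of HCs, averaged 1073 and 952 CPM against 1.94 and 0.892 CPM, and Gfi1 258 and 213 CPM against 0.145 and 0 CPM. Isl1, at 132 and 109 CPM against 677 and 476 CPM, was lower. Eya1 was lower too and stood at -0.50 within replicate 4 and -1.90 within replicate 5. Hes6, the last of the 3, averaged 53.1 and 24.7 CPM in IHCs against 78.2 and 54.4 CPM, with a limma adjusted p of 0.0443 that was above 0.05 in 14 of the 16 other fits, from 0.0556 to 0.472. Of 20 ligands and trophic factors, 8 were tested, 4 were higher and 2 lower, with a median of 0.28. Bdnf, a trophic factor for afferent neurons, averaged 284 and 288 CPM in IHCs and 1.11 and 0.906 CPM in the reference, and 61 of 77 cells held it. Ntf3, the other cochlear neurotrophin, did not pass, at 5.57 and 20.6 CPM against 21.5 and 15.7 CPM. Of 19 genes listed as OHC markers, 11 were tested against the reference, 8 were higher and 3 lower, with a median of 1.62. Of 13 neuronal genes, 7 were tested, 3 were higher (Nefl, Nefm and Sncg) and 3 lower.

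The largest fall was in Lum (lumican, a proteoglycan of the matrix), which averaged 60.7 and 16.8 CPM in IHCs and 3992 and 3373 CPM in the reference (log2 fold change -6.40, standard error 0.19), and Epyc, another proteoglycan, 53.7 and 25.3 CPM against 3582 and 2881 CPM. Others among the 10 were Lgals1, Dcn, Ibsp, Mbp, Serpina3a, Cldn4 and Krt18. Ibsp differed between the libraries, with -5.13 within replicate 4 and -6.71 within replicate 5. All 10 listed glial genes were tested and lower, with a median of -2.89. Near 0 in IHCs, they passed the filter through the reference alone, which fixed their direction. In part this holds for the lists of other cells that follow. Of 11 mesenchymal genes 7 were tested and 6 lower, with a median of -3.68. Of 12 genes of Kölliker's organ (KO) and interdental cells 10 were tested and 8 lower, with a median of -4.09. Of 22 supporting cell (SC) genes 18 were tested, 15 were lower and 1, Otog, was higher, with a median of -1.77. Without the 17 IHCs that held a UMI of Fabp7 (a gene of SCs) Otog stood at -0.39. Of 13 blood, immune and endothelial genes 2 were tested, and C1qb alone was higher.

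Genes of the SC list were detected in the gate. Whether their RNA came from SCs was not tested. The list summed to 792 and 705 CPM in IHCs, 337 and 841 CPM in OHCs, and 6011 and 5203 CPM in the reference. The KO and interdental list summed to 1533 and 1511 CPM in IHCs, 698 and 940 CPM in OHCs, and 29309 and 27425 CPM in the reference. Prox1, Fgfr3, Matn4, Hey2 and Ceacam16 of the SC list were at 0 in both IHC libraries. From summed UMIs the reference held 76.3 CPM of Matn4, 26.8 CPM of Fgfr3 and 6.19 CPM of Hey2. A floor of 3 UMIs over all IHCs is 5.07 CPM, and Prox1 and Ceacam16 did not exceed it in the reference. A 0 of Hey2, Prox1 or Ceacam16 in IHCs thus says little. Glial genes summed to 16.7 and 41.8 CPM in IHCs against 1204 and 3399 CPM in the reference.

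Fabp7, a fatty acid binding protein of the SCs next to IHCs (chromosome 10 from 57784881 to 57788450), averaged 172 and 225 CPM in IHCs, 199 and 359 CPM in the reference and 0 in both OHC libraries. Its IHC level was 86.6% and 62.9% of the reference level. Other SC and KO genes varied widely by this measure. Tectb, an abundant tectorial membrane gene of the reference, reached 4.58% and 6.21%, and Gjb2 7.50% and 9.61%. Tecta reached 82.8% and 102.7%, Otoa 89.3% and 48.9%, and Otog 179% and 232%. The Fabp7 UMIs came from 8 of 38 and 9 of 39 IHCs. Cells with Fabp7 had median depths of 9331.5 and 7315 UMIs and those without it 7273.5 and 7715. Of the 17, 1 was called by Scrublet, which called far fewer cells than it was set to expect, and 7 held Slc17a8. Averaged over cells, Rprm was 3092 CPM in the 17 with Fabp7 and 5026 CPM in the 60 without. Pvalb (4229 against 6433 CPM) and Cabp2 (1530 against 1936 CPM) were also lower with Fabp7, whereas Dlk2 was level at 542 against 543 CPM. Tectb was 1661 CPM with Fabp7 and 155 CPM without, Mia 1864 against 249 CPM, Gjb2 427 against 38.9 CPM and Slc1a3 55.7 against 2.29 CPM. The 17 cells thus held IHC markers together with a higher mean of several SC and KO genes. They were chosen after their values were seen, and the split itself is a description with no test. Leaving them out kept Rprm, Dlk2, Tbx2, Atp2a3 and Slc17a8 past the threshold in both comparisons at P7.

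**Figure D2:**
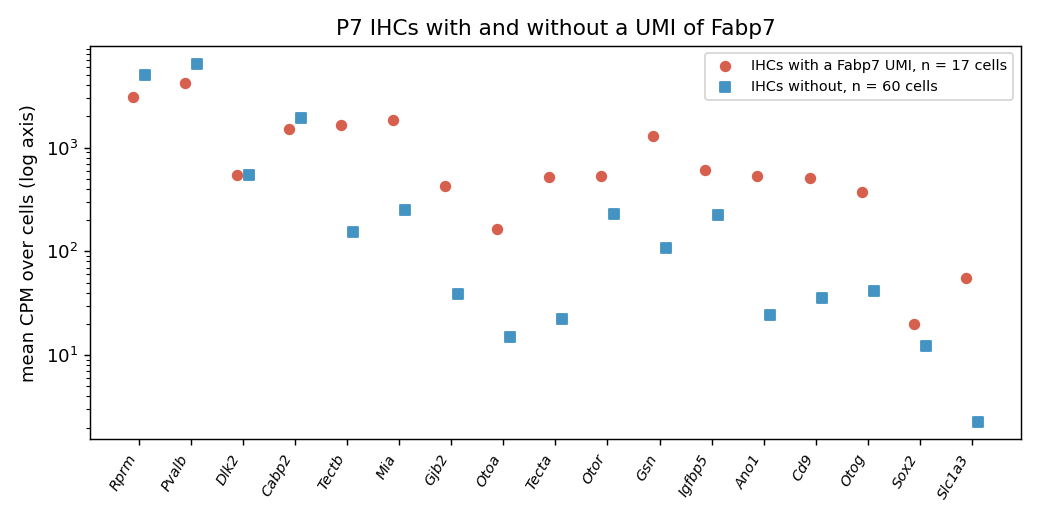
Mean level over cells (CPM, log axis) of 17 genes in the 17 P7 IHCs with a UMI of Fabp7 (red circles) and the 60 without (blue squares), both libraries together and with no error bars, since cells are not replicates. Dlk2 is level between them at 542 and 543 CPM, Rprm is lower with Fabp7 at 3092 and 5026 CPM, and Tectb is higher at 1661 and 155 CPM.

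IHCs and OHCs of the same libraries were far closer to each other. Of 8812 genes, 266 were higher (3.02%) and 313 lower (3.55%) in IHCs, 6.57% in all, with a median log2 fold change of 0.04. Gate genes of both classes were left out. With no filter on low values none passed limma's adjusted p of 0.05 (719 higher and 603 lower at an unadjusted p under 0.05), without the library block 105 were higher and 151 lower, and after thinning to 1500 UMIs 62 and 76. The 10 largest rises were Rprm, Atp2a3, Tbx2, Fabp7, Dlk2, Fam19a3, Cabp2, Slc34a3, Shtn1 and Gsn. Of the 15 IHC marker genes 13 were tested and 11 were higher, with a median of 3.85. That list was drawn with earlier results of these data known and is no independent evidence of its direction. Kcnj13 (547 and 534 CPM in IHCs, 698 and 544 CPM in OHCs) and Brip1 did not pass.

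Rprm differed most, at 5070.1 and 4141 CPM in IHCs and 4.33 and 2.84 CPM in OHCs (log2 fold change 8.40, SE 0.24, limma's adjusted p = 4.66e-17), with its OHC level below that of the reference. Atp2a3 (chromosome 11 from 72961169 to 72993044) averaged 579 and 664 CPM in IHCs and 6.01 and 15.8 CPM in OHCs (4.95, SE 0.33, limma's adjusted p = 4.79e-10). Tbx2, a T-box factor (chromosome 11 from 85832551 to 85841948), averaged 200.1 and 278 CPM in IHCs and had no UMI in 56 OHCs. Against a floor of 3 UMIs over all OHCs it was at least 33.6-fold higher. By the same floor Fam19a3, a secreted chemokine-like protein, was at least 21.5-fold higher, Slc34a3, a phosphate carrier, at least 19.6-fold and Slc17a8 (chromosome 10 from 89574020 to 89621253) at least 13.3-fold. In all of these both IHC libraries lay above both OHC libraries.

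**Figure D3:**
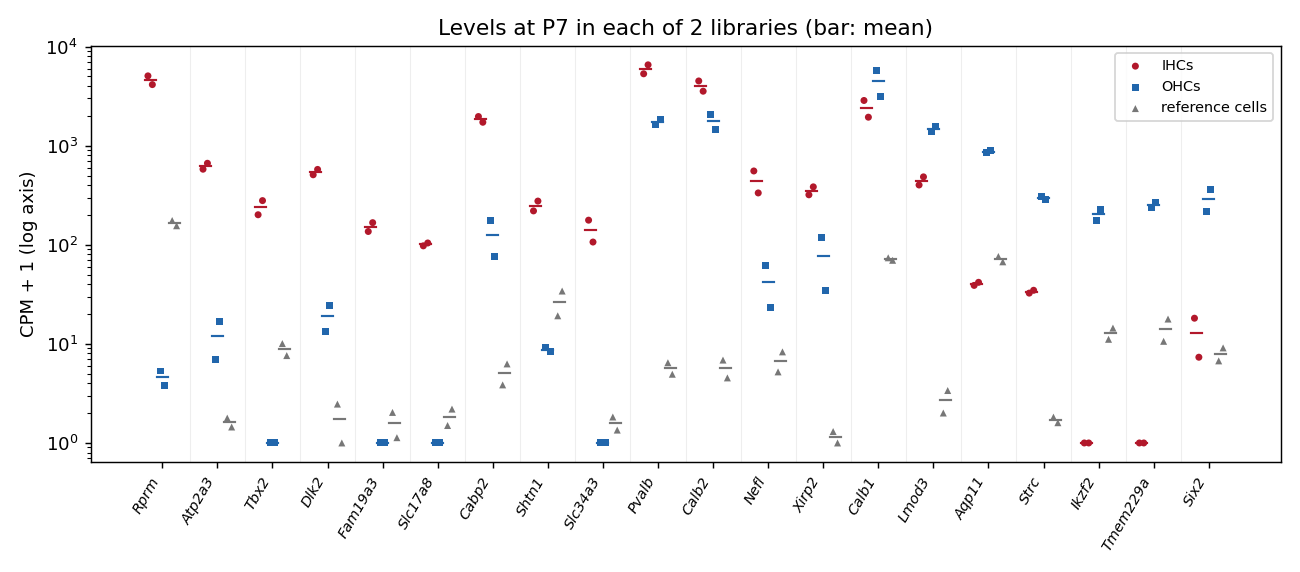
Levels of 20 genes at P7 (vertical axis, CPM + 1, log axis) in IHCs (red circles), OHCs (blue squares) and reference cells (grey triangles). Each point is 1 library and each bar is the mean of 2. From Rprm to Xirp2 both IHC points lie above both OHC points, and from Calb1 to Six2 both lie below.

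The promoters of the IHC-enriched genes Rprm, Dlk2 and Cabp2 are shown because these genes were among the largest rises over OHCs and differ in whether they hold CAGATG, an E-box letter string of the kind bound by bHLH factors. For each gene the RefSeq transcript start nearest to the start of the annotated gene was used, and the 250 bases before it (GRCm38.p6) run 5′ to 3′ on the gene's strand in lower case, and capitals mark CAGATG or its reverse CATCTG.
Rprm, chr2:54085553-54085802, minus strand: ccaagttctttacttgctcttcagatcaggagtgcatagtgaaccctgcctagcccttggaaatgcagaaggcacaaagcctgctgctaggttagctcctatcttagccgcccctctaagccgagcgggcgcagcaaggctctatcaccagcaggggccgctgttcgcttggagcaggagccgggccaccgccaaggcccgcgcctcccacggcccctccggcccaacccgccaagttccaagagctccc
Dlk2, chr17:46297233-46297482, plus strand: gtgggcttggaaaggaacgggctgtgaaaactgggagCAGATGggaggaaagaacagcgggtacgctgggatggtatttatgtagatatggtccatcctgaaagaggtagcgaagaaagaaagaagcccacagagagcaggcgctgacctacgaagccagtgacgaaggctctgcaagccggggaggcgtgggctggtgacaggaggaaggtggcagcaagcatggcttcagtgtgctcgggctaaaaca
Cabp2, chr19:4082238-4082487, plus strand: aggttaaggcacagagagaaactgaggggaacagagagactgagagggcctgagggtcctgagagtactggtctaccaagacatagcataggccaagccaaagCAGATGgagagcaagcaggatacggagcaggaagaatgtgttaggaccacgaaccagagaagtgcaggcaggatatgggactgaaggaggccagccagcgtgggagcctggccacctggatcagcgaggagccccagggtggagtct
Of the 7 largest rises with a promoter entry, 4 (Fabp7, Dlk2, Cabp2 and Gsn) held CAGATG on either strand, and Rprm did not. Of the 9 largest falls with an entry, 1 (Urah) held it. A gene was counted when any of its windows held the letters, and 16.3% of all 27025 genes with an entry did (14.4% of the 32851 windows). The windows of Dlk2 and Cabp2 lie in part or wholly inside the annotated gene, which has an earlier start. A match is a description and not a binding site.

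Of 18 ribbon genes 13 were tested against OHCs and 3 were higher in IHCs, namely Slc17a8, Cabp2 and Cacna2d2, where 3.02% of all genes were. The median of the ribbon genes was 1.01, against 0.04 over all genes tested. Cacna2d2, an auxiliary calcium channel subunit, averaged 47.1 and 44.7 CPM in IHCs and 0 and 4.91 CPM in OHCs (log2 fold change 2.19, SE 0.57, limma's adjusted p = 0.0193). Cacna1d was 211 and 295 CPM in IHCs and 234 and 270.1 CPM in OHCs, a difference of -0.01 with a standard error of 0.23. Of 28 vesicle genes 20 were tested, with Syt2 higher and Dnm3 lower, a share near the 6.57% of all genes that passed. Syt2 was at 0 in both OHC libraries and at least 5.32-fold higher in IHCs. Among the 12 mechanotransduction genes tested none passed limma's adjusted p of 0.05, and their log2 fold changes ran from -0.85 (Tmie) to 0.33 (Myo7a). Cib2 had the smallest error, with a difference of 0.05 and a standard error of 0.07. Of 27 stereocilia genes tested, Xirp2, Fscn2 and Grxcr1 were higher and Strc was lower. Xirp2 stood at 1.36 within replicate 4 and 3.18 within replicate 5. Strc (stereocilin, which ties OHC stereocilia to each other and to the tectorial membrane) averaged 31.5 and 33.8 CPM in IHCs and 306 and 285 CPM in OHCs (-2.84, SE 0.33, limma's adjusted p = 2.52e-06).

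Among the function lists, calcium handling had the most genes past the threshold between the classes. Of 14 genes tested 7 were higher in IHCs and 3 lower, where 3.02% and 3.55% of all genes were, with a median of 0.40. Pvalb was 5324 and 6554 CPM in IHCs and 1632 and 1854 CPM in OHCs, and Calb2 4505 and 3551 CPM and 2069 and 1461 CPM. Calb1 (calbindin) went the other way, with 2862 and 1941 CPM in IHCs and 5807 and 3131 CPM in OHCs. In each of these genes the libraries of the classes did not overlap. The plasma membrane pumps also parted. Atp2b1 averaged 699 and 608 CPM in IHCs and 363 and 414 CPM in OHCs, whereas Atp2b2, the pump of OHC stereocilia, averaged 66.2 and 79.3 CPM and 188 and 245 CPM. Both reticulum pumps, Atp2a2 and Atp2a3, were higher in IHCs. S100b was lower.

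Of 19 OHC marker genes 12 were tested and 9 were lower in IHCs, where 3.55% of all genes were, with a median of -1.72. The OHC class was picked by Slc26a5 and Ocm of this list, so the counts describe that class and not all OHCs. Aqp11, a water channel (chromosome 7 from 97724006 to 97738289), averaged 37.9 and 40.8 CPM in IHCs and 850.2 and 887 CPM in OHCs (log2 fold change -4.15, SE 0.25, limma's adjusted p = 1.43e-10). Ikzf2 (helios, a regulator of OHC identity) had no UMI in 77 IHCs and 177 and 227 CPM in OHCs, at least 40.9-fold lower by the floor. Lmod3, an actin nucleator, averaged 401 and 484 CPM in IHCs against 1394 and 1548 CPM, and Chrna10 147 and 215 CPM against 358 and 363 CPM. Chrna9, with 249 and 245 CPM and 442 and 269 CPM, did not pass. The rest of the 10 largest falls were Urah, Tmem229a, Agpat2, Veph1, Fgfr3, Six2, Ryr1 and Proser2. Six2, a homeobox factor, averaged 17.2 and 6.34 CPM in IHCs and 214 and 361 CPM in OHCs. Of 18 transcription factors tested Tbx2 alone was higher, and Pou4f3, Ikzf2, Six2 and Zfp503 were lower, against 3.02% and 3.55% of all genes.

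IHCs were not free of Ocm (oncomodulin), which chose the OHCs and was not tested between them. Ocm averaged 630.0 and 545 CPM in IHCs, 12349 and 11699.7 CPM in OHCs and 3.63 and 4.23 CPM in the reference. A UMI of it was found in 55 of 77 IHCs, whose median was 316 CPM and whose highest value was 3460.5 CPM, and 19 had an ln value of at least 2.0. The lowest OHC held 2108 CPM, a bound that the OHC gate fixes in part.

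Against OHCs 3 of 5 neuronal genes tested passed, where 6.57% of all genes did. The neurofilament genes Nefl, at 555 and 333 CPM in IHCs and 60.4 and 22.2 CPM in OHCs, and Nefm were higher, as was Sncg. Chrna1, the muscle-type nicotinic subunit, averaged 289 and 322 CPM in IHCs and 117 and 77.5 CPM in OHCs (1.58, SE 0.28, limma's adjusted p = 0.000634), while P2rx2 was lower. Gdnf, a trophic factor, averaged 48.2 and 25.3 CPM in IHCs and 0 and 2.06 CPM in OHCs (limma's adjusted p = 0.0437) and was found in 15 of 77 and 1 of 56 cells. It was the 1 ligand of 7 tested that passed, and Kcnj16, lower in IHCs, was the 1 channel gene of 12. Gdnf missed the threshold in 5 of the 14 other fits, at an adjusted p of 0.0533 to 0.806. With cells of more than 3000 genes left out Kcnj16 stood at 0.20, the other direction. None of the 3 mesenchymal and 2 blood or endothelial genes tested passed.

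Of 9 KO and interdental genes tested, Otoa, Tecta, Tectb and Mia were higher in IHCs and Smoc2 lower, where 3.02% and 3.55% of all genes were, and Ano1 was higher by 2.61. Without the cells that held Fabp7, Tecta stood at 0.49 and Ano1 at 0.37, both no longer past the threshold, Mia stood at -0.07, and Tectb was lower in IHCs at -1.03 (limma's adjusted p = 0.00759). Otoa fell under the filter on low values and was not tested there, and averaged 165 CPM over the 17 IHCs with Fabp7 and 14.9 CPM over the 60 without. Atp2a2 (limma's adjusted p = 0.0565), Cacna2d2 (0.0678) and Nefm (0.14) also missed the threshold without these cells. Gsn (gelsolin, chromosome 2 from 35256380 to 35307892) remained higher at 1.80 (limma's adjusted p = 0.00442), against 3.61 with all cells. Within replicates 4 and 5 Gsn stood at 2.48 and 4.74 with all cells, and Tecta at 3.68 and 1.54. Among the 266 genes higher in IHCs than in OHCs, 25 (9.40%) stood higher still in the reference in both libraries, against 31.0% of all genes tested.

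**Figure D4:**
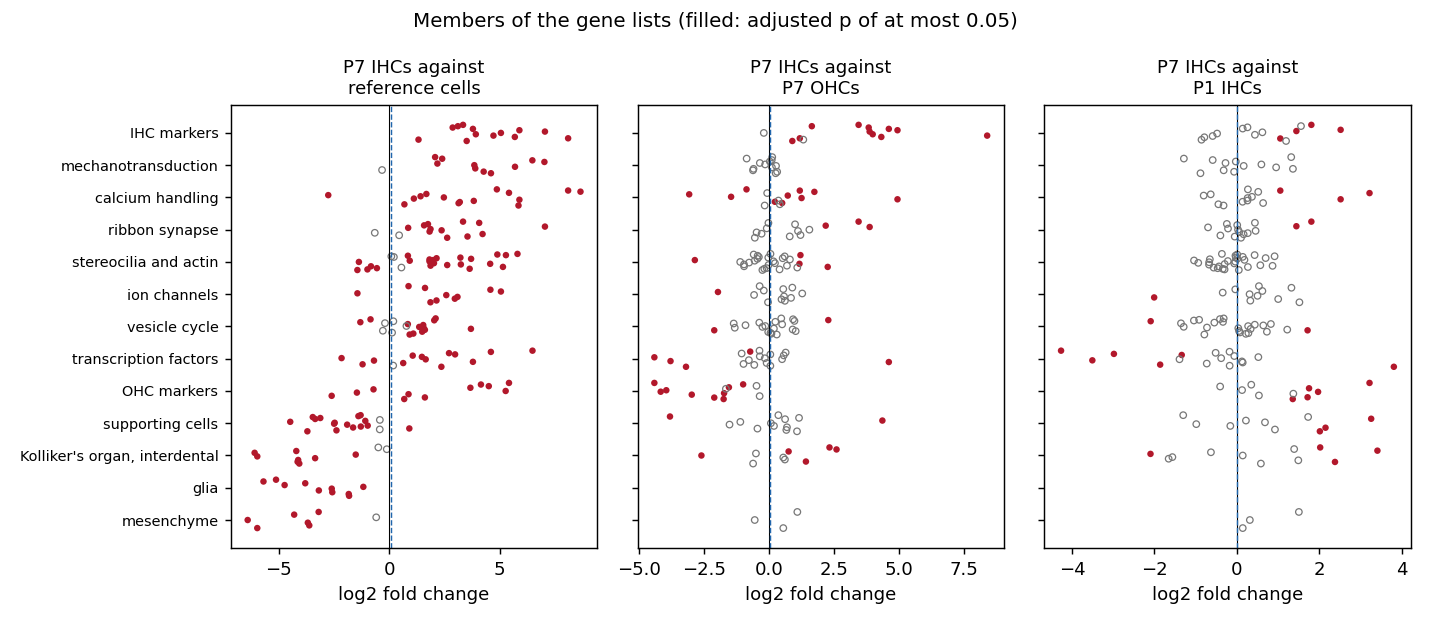
Log2 fold change (horizontal axis) of each tested member of 13 gene lists, for P7 IHCs against reference cells, against P7 OHCs and against P1 IHCs. Filled points passed limma's adjusted p of 0.05 and open points did not. The dashed line marks the median of all genes tested (0.09, 0.04 and 0.01). Mechanotransduction genes lie right of 0 against the reference in 10 of 11 and scatter around 0 in the other panels.

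The same gate found IHCs at the earlier ages. It took 29, 28, 35 and 43 cells of P1 replicates 1 to 4 (135 in all), 11 cells at E16 and 1 at E14, and P1 alone had at least 5 cells in every library, the minimum for a profile. Ages came from different litters and captures, so that age and collection cannot be told apart. Of 8917 genes, 189 were higher (2.12%) and 236 lower (2.65%) at P7 by limma, 4.77% in all, with a median log2 fold change of 0.01. With 4 libraries against 2, an exact permutation test of a single gene cannot go below p = 0.0667. Here too a gene near 0 at 1 age passed the filter only through the other age, which fixes the list counts in part. The counts leaned on single libraries. Without P7 replicate 4 limma called 59 higher and 46 lower, without P7 replicate 5 50 and 31, without P1 replicate 2 116 and 145, and without P1 replicate 3 108 and 131. A lone P7 library was then assumed to vary as the P1 libraries did. The methods name 3000 genes, together with 15000 UMIs, as limits for excluding cells. More than 3000 genes were found in 18, 14, 27 and 4 IHCs of P1 replicates 1 to 4, and in 9 and 9 of the P7 libraries. Median depths of the P1 IHCs were 9808, 7365.5, 8414 and 5224 UMIs. With cells of more than 3000 genes left out 44 were higher and 77 lower. What lowered these counts was not tested.

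Of 16 transcription factors tested, 5 fell from P1 to P7, 1 rose and 10 did not pass, where 2.65% of all genes fell and 2.12% rose. Atoh1, the bHLH factor that starts HC differentiation, averaged 367, 527, 497 and 401 CPM in the P1 libraries and 7.54 and 21.7 CPM at P7 (log2 fold change -4.26, SE 0.35, limma's adjusted p = 1.41e-07). Hes6, a bHLH gene downstream of it, averaged 382, 587, 700.5 and 469 CPM at P1 and 53.1 and 24.7 CPM at P7, and Barhl1, a homeobox factor, 264, 685, 642 and 569.5 CPM and 63.6 and 48.4 CPM. No P7 value of these genes reached any P1 value. Lhx3 and Eya1 were the other falls, and missed the threshold in 7 and 10 of the 20 other fits (Eya1 stood at -0.28 with the change of the reference subtracted), whereas Rorb rose from 0, 0, 0 and 3.74 CPM to 105 and 191 CPM. Pou4f3 (1088, 1401, 1002 and 1119.9 CPM at P1, 1073 and 952 CPM at P7), Gfi1 and Tbx2 did not pass. The Notch ligands Jag2 and Dll4 fell, Jag2 from 184, 266, 317 and 395 CPM to 54.2 and 87.2 CPM. Without P7 replicate 4 the adjusted p of Jag2, Dll4, Lhx3 and Eya1 rose to between 0.165 and 0.202, and without P7 replicate 5 that of Barhl1 was 0.0607, while Atoh1 and Hes6 passed without any 1 library.

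The largest fall was in Ccer2, a secreted coiled-coil protein (chromosome 7 from 28756174 to 28758968). It averaged 5953, 8328, 8461 and 5238 CPM at P1 and 159 and 126 CPM at P7 (-5.50, SE 0.28, limma's adjusted p = 6.6e-11), and 35 of 77 P7 IHCs still held a UMI. Gng8, a G protein gamma subunit, went from 626, 342, 264 and 307 CPM to 0 and 3.58 CPM, and Pgam2, the muscle form of a glycolytic enzyme, from 579.8, 901, 1263 and 391 CPM to 32.8 and 9.37 CPM. Chrng, the fetal gamma subunit of the muscle nicotinic receptor (chromosome 1 from 87204657 to 87212694), averaged 251, 237, 260.0 and 181 CPM at P1 and had no UMI in any P7 IHC. By a floor of 3 UMIs it was at least 45.9-fold lower at P7, Nnat at least 54.0-fold and Slc52a3, a riboflavin carrier, at least 35.2-fold. Chrna1, its partner subunit, was 475, 251, 265 and 232 CPM at P1 and 289 and 322 CPM at P7 and did not pass. Ccl21a and Pcbp4 complete the 10 largest falls. Reads of Ccl21a cannot be set apart from those of its near-identical copies.

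The promoters of Ccer2, Pgam2, Chrng and Hes6 are shown because these genes were among the largest falls and hold CAGCTG, another E-box letter string. They were picked for holding it, and which factor acts on them was not tested. Windows and strand are as above, and capitals mark CAGCTG, or CAGATG or CATCTG.
Ccer2, chr7:28755924-28756173, plus strand: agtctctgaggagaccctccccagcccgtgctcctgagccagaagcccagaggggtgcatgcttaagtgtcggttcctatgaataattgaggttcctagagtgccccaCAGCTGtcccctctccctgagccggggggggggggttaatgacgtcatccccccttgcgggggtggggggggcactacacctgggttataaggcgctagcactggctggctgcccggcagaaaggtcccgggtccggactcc
Pgam2, chr11:5803797-5804046, minus strand: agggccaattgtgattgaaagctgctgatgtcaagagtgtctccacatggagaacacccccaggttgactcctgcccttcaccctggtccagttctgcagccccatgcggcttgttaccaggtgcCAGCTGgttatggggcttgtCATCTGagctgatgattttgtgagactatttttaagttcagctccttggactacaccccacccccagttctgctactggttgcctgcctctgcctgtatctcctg
Chrng, chr1:87205561-87205810, plus strand: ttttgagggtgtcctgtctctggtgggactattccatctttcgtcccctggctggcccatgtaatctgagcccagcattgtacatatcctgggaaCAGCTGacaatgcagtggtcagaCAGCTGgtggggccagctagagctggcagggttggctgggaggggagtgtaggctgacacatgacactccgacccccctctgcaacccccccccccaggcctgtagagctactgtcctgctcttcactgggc
Hes6, chr1:91414039-91414288, minus strand: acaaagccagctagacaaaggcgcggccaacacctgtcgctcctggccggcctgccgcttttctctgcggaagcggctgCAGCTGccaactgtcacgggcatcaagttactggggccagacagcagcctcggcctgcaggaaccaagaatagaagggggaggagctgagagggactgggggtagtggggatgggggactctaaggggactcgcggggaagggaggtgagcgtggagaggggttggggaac
Of the 8 largest falls with a promoter entry these 4 held CAGCTG, which reads the same on both strands, and Chrng held it at 2 places. Of all genes with an entry 14.7% held it in a window (4271 of 32851 windows). Of the 9 largest rises with an entry, 1 (Gsn) did. CAGATG was held by 2 of the 8 falls and 1 of the 9 rises, where 16.3% of all genes with an entry held it. Against OHCs, CAGCTG was held by 1 of 7 rises and 1 of 9 falls with an entry. The window of Chrng lies inside the annotated gene, which starts further upstream. These are letters in a window, and binding was not measured.

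Several IHC genes rose over the same interval. Slc17a8 averaged 20.1, 13.9, 23.8 and 29.8 CPM at P1 and 96.6 and 103 CPM at P7 (log2 fold change 1.81, SE 0.43, limma's adjusted p = 0.0169). Cabp2 rose from 1067, 763, 697 and 354 CPM to 1970.4 and 1725 CPM, and Atp2a3 from 155, 91.6, 52.9 and 128 CPM to 579 and 664 CPM. In each of these the P7 libraries lay above all P1 libraries. With Calb2 these were the 4 of 14 IHC marker genes that passed, all upward, where 2.12% of all genes rose, with a median of 0.53. All 4 missed the threshold when either P7 library was left out, with adjusted p of 0.212 and 0.289 for Slc17a8, 0.354 and 0.343 for Cabp2, 0.0769 and 0.11 for Atp2a3 and 0.462 and 0.347 for Calb2 without replicate 4 and 5. Rprm (4755, 3305, 2563 and 3218 CPM at P1), Dlk2, Tbx2 and Shtn1 did not pass. Of 15 ribbon genes tested, Slc17a8 and Cabp2 alone passed, where 4.77% of all genes did. No mechanotransduction gene of 12 and no stereocilia gene of 28 passed limma's adjusted p of 0.05, with medians of -0.04 and -0.05. Tmc1 averaged 3.55, 12.9, 4.04 and 10.4 CPM at P1 and 53.8 and 19.1 CPM at P7 (log2 fold change 1.32, SE 0.49, limma's adjusted p = 0.148), and its P7 values lay above all P1 values.

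Ocm rose from 62.5, 53.6, 41.6 and 60.3 CPM to 630.0 and 545 CPM (3.22, SE 0.35, limma's adjusted p = 5.01e-06). Another 4 of the 10 OHC marker genes tested also rose, Lmod3, Strip2, Dnm3 and Sri, where 2.12% of all genes rose. Lmod3 went from 65.4, 111, 106 and 154 CPM to 401 and 484 CPM. Whether stray OHC RNA took part was not tested. Slc26a5 and Ikzf2 were at 0 in both P7 IHC libraries. The list counts that follow stand beside 2.12% of all genes that rose, 2.65% that fell and 4.77% that passed in either direction. Of 14 calcium genes tested, Calb2, Atp2a3 and Ocm rose. Of 24 vesicle genes, where 4.77% of all genes passed, Dnm3 rose and Syt13 fell, from 20.9, 88.2, 136 and 71.9 CPM to 4.04 and 13.7 CPM. Kcnh7 was the 1 of 11 channel genes that passed, and it fell from 57.3, 81.6, 96.8 and 155 CPM to 25.6 and 8.16 CPM. Of 9 ligands tested, Gdnf rose from 0 in every P1 library to 48.2 and 25.3 CPM, at least 12.1-fold. Of 5 neuronal genes Nefm fell. Without P7 replicate 4 or 5 Ocm and Gdnf still passed, and Lmod3 (adjusted p of 0.1 and 0.165), Strip2, Dnm3, Sri, Syt13, Kcnh7 and Nefm did not. Of the 5 receptors tested Chrng alone passed, and none of the 3 mesenchymal and 2 blood or endothelial genes did.

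The largest rise was in Ighm, the constant region of the IgM heavy chain (chromosome 12 from 113418558 to 113422730). It averaged 58.7, 0, 0 and 12.2 CPM at P1 and 2357 and 2111 CPM at P7 (6.83, SE 0.56, limma's adjusted p = 1.41e-07). At P7 76 of 77 IHCs and 53 of 56 OHCs held it, at 3762 and 3666 CPM in OHCs, against 2.34 and 4.05 CPM in the reference. Among other genes of the immunoglobulin locus or of B lymphocytes, chosen after the level of Ighm was seen, Igkc, Cd79a, Cd79b, Jchain, Ptprc and Cd74 held no UMI in either P7 IHC library. Ighd averaged 9.61 and 0 CPM and Vpreb3 0 and 15.6 CPM. Tmem121, which is not particular to B lymphocytes, averaged 30.6 and 47.3 CPM in P7 IHCs, 37.4 to 44.7 CPM in P1 IHCs and 5.38 and 8.15 CPM in the P7 reference. The other large rises were Hspa1a, Otor, Gsn, Efhd2, AI593442, Igfbp5, Rorb, Ano1 and Lig1. Lig1, DNA ligase 1, went from 5.98, 15.5, 14.3 and 27.9 CPM to 185 and 347 CPM, and Efhd2, a calcium-binding actin regulator, from 3.68, 0, 8.17 and 4.71 CPM to 207 and 219.5 CPM. Hspa1a, a heat shock gene with a near-identical copy that also responds to dissociation, was 708 and 194 CPM in IHCs, 2644 and 1371 CPM in OHCs and 215 and 105 CPM in the reference at P7. Without P7 replicate 4 Igfbp5 missed the threshold (limma's adjusted p = 0.0575), and without P7 replicate 5 Igfbp5, Gsn and Lig1 did (0.0817, 0.0588 and 0.0914).

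**Figure D5:**
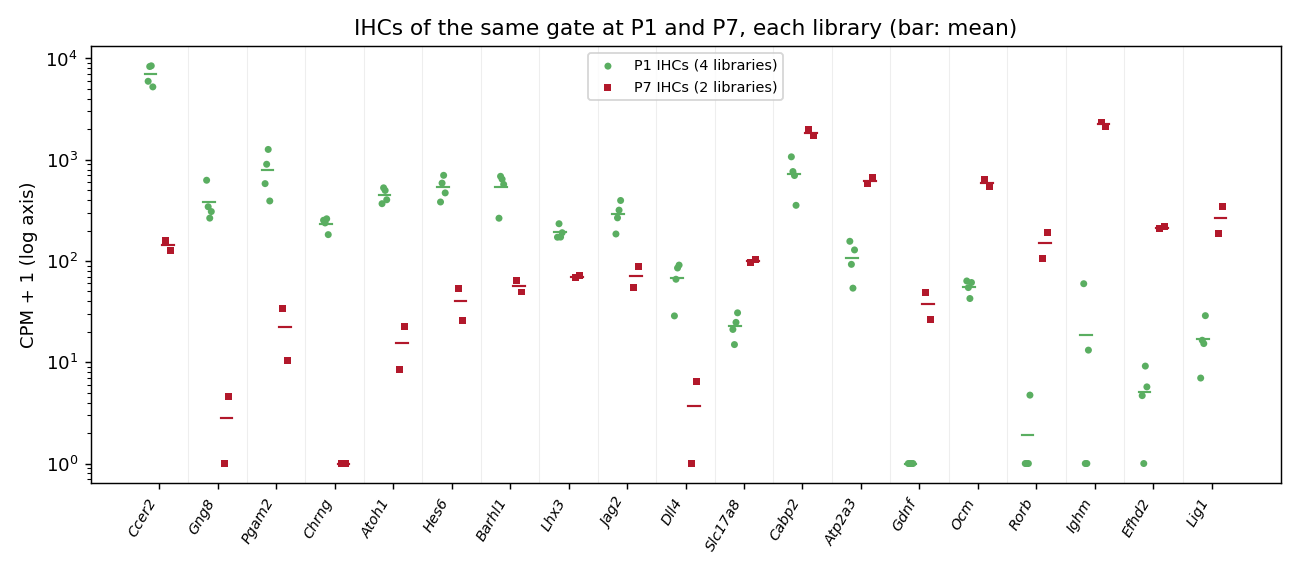
Levels of 19 genes (vertical axis, CPM + 1, log axis) in IHCs of the same gate in 4 P1 libraries (green circles) and 2 P7 libraries (red squares), with a bar at each mean. From Ccer2 to Dll4 both P7 points lie below all P1 points, and from Slc17a8 to Lig1 both lie above.

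Of 10 SC genes tested Fabp7, Otog and Cd9 rose from P1 to P7, and of 11 KO and interdental genes Otoa, Tectb and Mia rose and Smoc2 fell, where 2.12% of all genes rose and 2.65% fell. The SC list summed to 254, 132, 456 and 407 CPM in P1 IHCs against 792 and 705 CPM at P7, and the KO and interdental list to 939, 173, 626 and 492 CPM against 1533 and 1511 CPM. Cells with Fabp7 numbered 3, 0, 4 and 0 in the P1 libraries and 8 and 9 at P7. Without them Otog (1.33), Cd9 (0.45), Mia (0.92), Tectb (1.92) and Ano1 (1.49) were no longer past the threshold and Otoa was too low to test, while Gsn (2.46), Igfbp5 (3.39) and Otor (3.54) still were. With all cells, leaving out either P7 library took the calls from Fabp7, Otog, Cd9, Otoa, Tectb, Mia and Smoc2. The reference mixes cell types, and glial genes in it summed to 109, 92.2, 92.2 and 111 CPM at P1 and 1204 and 3399 CPM at P7. A value with its change subtracted can thus hold a change in that mix, and is not a measure of IHCs alone. When the change of the reference cells from P1 to P7 was subtracted, Smoc2 stood at 2.5 and Otor at -0.20, both the other direction. Rprm then stood at -1.77 (limma's adjusted p = 0.00667), and 11 genes missed the threshold. These were Cabp2 (1.05, limma's adjusted p = 0.13), Ano1 (0.55, 0.435), Eya1 (-0.28, 0.807), Tectb (0.46, 0.73), Cd9 (0.88, 0.401), Mia (1.60, 0.217), Fabp7 (0.126), Otoa (0.0842), Sri (0.0771), Dnm3 (0.0733) and Strip2 (0.0624). Otor, Igfbp5 and Gsn were abundant in the reference, where Otor averaged 226 and 657 CPM and Igfbp5 403 and 458 CPM. In IHCs Otor reached 74.7% and 64.3% of that level. Of the 189 genes that rose, 46 (24.3%) stood higher in the reference in both P7 libraries, against 30.7% of all genes tested.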

How the data were processed

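Per the labels and methods, cochlear epithelia were dissociated (papain in the labels, trypsin in the methods) and captured on a 10x Chromium instrument. The submitters' processing notes name Cell Ranger 2.1.1, Seurat 2.0 and the mm10 build. The authors deposited 1 table per age of natural log (ln) values, ln(1 + 10000 × UMIs / total UMIs of the cell). All values above 0 gave whole UMIs (100%, tolerance 2%), so CPM were computed from them. Every column was mapped to a library. The methods mention more P7 collections than the 2 libraries analysed here.

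The gate, the OHC and reference classes, and the 17 gene lists (279 genes) were chosen with earlier results of these data known. Each class was averaged per library and compared with limma 3.58.1 (R 4.3.3, trend) (pseudocount of 10 CPM on the log2 scale), leaving out genes whose mean over the profiles was under 10 CPM, and p-values were adjusted by Benjamini-Hochberg and called at 0.05. The P7 comparisons carried a library block, because both classes came from the same captures. Named were the 10 largest rises and falls of called genes with the same direction in every library pair, without gate, mitochondrial, ribosomal, haemoglobin, Gm and Rik genes, Malat1, Xist and Tsix, and the list genes. Some genes of these are not reported here. Python 3.11.15 and Scrublet (scanpy 1.11.5) were used. Scrublet was set to expect 0.06 of cells as doublets. It called 0.143% of cells in P1 replicate 4, too few to have worked there. In P7 replicates 4 and 5 it called 0.507% and 0.874%, also far below the expected share. The fits were tested on simulated data with 200 changed genes. Over the 3 comparisons they recovered 98.5% to 100% of genes changed by 4 on the log2 scale and 9.23% to 40.0% of those changed by 1. False calls made up 6.79% of calls against the reference, 4.76% against OHCs and 1.7% between ages. In the simulated P7 comparisons a library shifted both classes alike, which the block removes, whereas in the data some differences varied between libraries. Alternatives covered normalization, pseudocount, filter, block, gate, doublets, depth and left-out libraries. Gene coordinates are those of the GENCODE annotation of GRCm38, promoters are those of RefSeq (GRCm38.p6), and 43 of 57 named genes had a promoter entry.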

Additional observations from a re-analysis of the deposited data

Results flagged for a closer look

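Within the 4 P1 libraries, 110 genes of the text were screened for a library that stood apart from the others in IHCs, by the gap to its nearest neighbour relative to the whole range (Dixon's 95% critical value). Chance alone puts about 1 in 20 groups past it. Of the 6 found, P1 replicate 1 stood apart in Chrna1, at 474.9 CPM against 232 to 265 CPM, and in Otor, at 3.533 CPM against 0. P1 replicate 4 stood apart in Grxcr1, at 65.66 CPM against 434 to 481 CPM, in Dcn, at 20.46 CPM, and in Rorb, at 3.735 CPM against 0. P1 replicate 2 stood apart in Hspa1a, at 15.92 CPM against 0. The low values of Otor and Rorb are 1 UMI each and that of Hspa1a is 3.

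The change from P1 to P7 in IHCs was compared with that in the reference cells of the same libraries, a test of the difference itself that was added after the data were seen. It passed limma's adjusted p of 0.05 for 639 of 8917 genes, 293 with the larger log2 change in IHCs and 346 with the smaller. The reference mixes cell types whose shares can differ between ages, so a difference is not by itself a change particular to IHCs. Among the largest rises of IHCs the difference of the log2 changes was 6.438 for Ighm, 4.08 for Efhd2, 3.759 for AI593442, 3.447 for Lig1, 3.42 for Igfbp5, 2.817 for Gsn, 2.685 for Rorb and 2.016 for Hspa1a, while Ano1 (0.55, limma's adjusted p = 0.435) and Otor (-0.20, 0.795) did not pass. Among the largest falls it was -4.867 for Gng8, -4.501 for Chrng, -4.247 for Pgam2, -4.039 for Slc52a3, -4.026 for Ccl21a, -3.937 for Ccer2, -3.895 for Atoh1, -3.553 for Hes6, -1.939 for Pcbp4 and -1.716 for Nnat. The reference held little of several of these genes at P1 (Atoh1 1.27 to 4.29 CPM, Chrng 0.940 to 2.21 CPM), so that for them the difference restates the fall in IHCs.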

How the results depend on the processing

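With 2 P7 libraries, leaving out 1 gives single values with no test for the P7 comparisons, and calls there lean on a variance shared across genes. Some weakly detected genes, such as the ribbon scaffolds Bsn and Pclo, fell under the filter, and whether depth took part was not tested. Over the named and list genes and the alternatives with a test, 5232 values kept their side of the threshold (and, for genes past it, their direction), 558 lost the call, 54 gained it and 12 turned. The 462 single-library values have no test, and in them no gene past the threshold with both libraries changed direction. Each such value is the difference within the library that remains, and named genes were chosen for the same direction in both. This outcome was thus largely fixed in advance. Among the calls lost in many fits were, against the reference, Hes6 (14 fits), Syt1 (8) and Otog (7), against OHCs Tectb (7) and Atp2a2 (6), and between ages Otog (13), Strip2 (12), Dnm3 (12), Mia (10), Sri (10) and Eya1 (10). The cause of the changes was not tested, except that fewer genes (3582, 3582 and 3657) were tested at 50 CPM.

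Counts of higher and lower genes that moved by over 1.5 times were these. Against the reference they were 0 and 0 with no filter, 1128 and 1135 at a mean of 50 CPM and 590 and 585 with each cell thinned to 1500 UMIs (2526 and 2271 as reported). Against OHCs they were 0 and 0 with no filter, 140 and 181 at 50 CPM and 62 and 76 after thinning (266 and 313). Between ages 85 were higher at a pseudocount of 1 CPM, 114 at 50 CPM and 293 with the change in the reference subtracted, and 54 were lower with no filter (189 and 236 as reported). An Otof threshold of 2.5 gave 95 and 147, leaving out cells of more than 3000 genes 44 and 77, and thinning 16 and 49. Leaving out 1 library gave 50 to 262 higher and 31 to 302 lower. Gating after thinning took 1.18% and 1.62% of cells in P7 replicates 4 and 5.

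Without the replicate block 105 genes were higher and 151 lower against OHCs, and 2127 and 1867 against the reference, the latter within 1.5 times of the blocked fit. No paired analysis was possible because P1 and P7 share replicate number 4 only, and it marks different litters.

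The values that turned were, against the reference, Otor at 0.26 from summed UMIs, Ocm at -0.20 against all P7 cells outside the gate and Otog at -0.39 without Fabp7 cells. Against OHCs they were Kcnj16 at 0.20 without cells of more than 3000 genes, and Mia at -0.070 and Tectb at -1.03 without Fabp7 cells. Between ages, with the reference change subtracted, they were Cib2 at 1.44, Espn at 1.40, Lgals1 at -1.89, Otor at -0.20, Rprm at -1.77 and Smoc2 at 2.5. The Fabp7 and reference-subtracted alternatives were added after seeing the data, and the latter can also hold changes in the mix of reference cells.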

Other observations

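C1qb, a complement gene of microglia and macrophages, averaged 43.5 and 21.3 CPM in IHCs of P7 replicates 4 and 5, 12.1 and 8.33 CPM in OHCs and 0 and 0.350 CPM in the reference. A UMI of it was found in 12 of 77 IHCs, 4 of 56 OHCs and 1 of the 2480 reference cells. In P1 IHCs it averaged 2.32, 4.86, 33.2 and 8.0 CPM. It was higher in P7 IHCs than in the reference (log2 fold change 2.01, SE 0.42, limma's adjusted p = 7.61e-06) and passed neither against OHCs (adjusted p = 0.343) nor against P1 (0.323).

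Dnajc5b, a cysteine-string protein listed as an IHC marker, was seen in 2 of 77 P7 IHCs, both in replicate 4, at 33.1 and 0 CPM by library. In P1 IHCs it averaged 24.1, 25.9, 16.2 and 41.2 CPM, and the difference between ages did not pass (log2 fold change -0.79, SE 0.55, limma's adjusted p = 0.524).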
